A study of Oryza sativa and Arabidopsis thaliana with 24 samples.

Results

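Cold and salt were compared directly in rice roots, with no control sample in the contrast. The comparison took 4 of the 24 libraries of the series, which also holds Arabidopsis tissues, rice shoots and rice panicles; 14 of the libraries are from rice. The members were chosen by their labels alone: 2 libraries of roots from cold-treated seedlings and 2 of roots from salt-treated seedlings. Cold-treated rice seedlings had spent 8 h in a cold room at 4 °C under continuous light. Salt-treated rice seedlings had taken up 300 mM NaCl for 8 h, and their light regime is not stated. Both came from seeds germinated at 30 °C for 2 d and grown in Yoshida's nutrient solution, pH 5.5, at 28 °C with 14 h of light and 10 h of dark. No genotype, cultivar or age at treatment is given in the labels. The 2 root libraries of untreated seedlings are printed after the others as a description, outside the contrast. The samples are whole roots, so fewer cells of a type and less RNA per cell cannot be told apart. The tables hold tRNAs alone, so the tissue could not be checked against root marker genes. The plastid share of the tRNA signal, which is high in green tissue, was 10.8% and 11.4% in cold roots, 6.17% and 5.69% in salt roots and 3.36% and 3.50% in control roots.

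Transfer RNAs (tRNAs) carry amino acids to the ribosome and are named by amino acid and anticodon, so that His-GTG is the histidine tRNA read by the anticodon GTG in DNA letters. Plant cells hold 3 sets of them: those encoded in the nucleus, and those encoded in plastid and mitochondrial DNA. Ribonucleases cut tRNAs into stable pieces called tRNA-derived fragments (tRFs), and such cutting is known to change under stress. Fragments that start at the 5′ end are tRF-5 where they end before the anticodon and 5′-halves where they end in or near it. Their counterparts from the 3′ end are tRF-3 and 3′-halves, which end in the CCA tail that every mature tRNA carries and that amino acids are attached to. Fragment classes are those of the deposited tables.

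Abundance was given at 3 levels: the signal of each tRNA, the tRF reads summed per tRNA (tRF total), and single fragment sequences. All are in reads scaled to library size (RPM). Cold root libraries held 56479 and 86657 reads of tRNA signal, salt root libraries 29173 and 45682, and control root libraries 34408 and 53345. The tRF reads numbered 553633 and 880814 in cold roots, 442885 and 710551 in salt roots, and 358133 and 570783 in control roots. A single tRNA read was worth 2.04 and 1.41 RPM in cold libraries and 5.23 and 3.53 RPM in salt libraries, so low tRNA values are coarser in salt. A difference was called at an adjusted p under 0.05, two-sided, from limma fitted over all features of a table in all 14 rice libraries, with Benjamini-Hochberg adjustment. Every adjusted p below is of this kind unless another test is named. The design text calls the replicates biological, but the read ratio of replicate 1 to replicate 2 was nearly the same in all 7 rice groups, 0.639 to 0.669 in the tRNA table. The p-values thus measure only the spread between these libraries, which may be technical.

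The sequences that carry the main differences are shown first. Nuclear His-GTG tRNA os_tR130 (chromosome 10, 20741052 to 20741123, plus strand) has 9 loci of the same sequence, and its anticodon at bases 34 to 36 is in capitals. Its 5′ fragments ended at successive bases, and capitals in the fragments mark bases past the 31st.
nuclear His-GTG tRNA: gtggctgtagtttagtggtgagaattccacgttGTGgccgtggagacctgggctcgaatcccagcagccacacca
nuclear His-GTG 31 nt: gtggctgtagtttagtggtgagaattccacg
nuclear His-GTG 33 nt: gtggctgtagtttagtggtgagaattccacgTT
nuclear His-GTG 35 nt: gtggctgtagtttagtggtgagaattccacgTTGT

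Plastid Glu-TTC tRNA os_tR102 (plastid chromosome C, 15650 to 15722, plus strand) has 5 loci of the same sequence, counted over all chromosomes. A tRNA with any plastid locus was counted as plastid, so its reads may also come from loci elsewhere. Capitals mark anticodon bases (35 to 37 in the tRNA). Plastid Glu-TTC is also known, besides protein synthesis, as the starting point of chlorophyll and haem synthesis. The plastid Asp-GTC and Gly-GCC fragments below are shown because they were among the largest rises in cold roots, and have no capitals. The Asp-GTC sequence occurs in 4 annotated tRNAs and the Gly-GCC sequence in 3.
plastid Glu-TTC tRNA: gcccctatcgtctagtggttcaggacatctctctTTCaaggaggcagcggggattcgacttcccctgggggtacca
plastid Glu-TTC 26 nt: gcccctatcgtctagtggttcaggac
plastid Glu-TTC 36 nt: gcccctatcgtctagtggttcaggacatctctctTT
plastid Asp-GTC 21 nt: gggattgtagttcaattggtc
plastid Gly-GCC 18 nt: gcgagcgtagttcaatgg

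The tRF totals of organelle tRNAs and of nuclear serine tRNAs were higher in cold roots, and those of nuclear histidine, glutamate, methionine, alanine and valine tRNAs were mostly higher in salt roots. Of 272 tRF totals, 120 were higher in cold roots and 62 lower, so 44.1% and 22.8% of all totals were called, 66.9% together. The median log2 difference of all totals, cold minus salt, was 0.25. Of 24 plastid totals 23 were higher in cold roots and 0 lower, with a median of 1.07. Of 14 mitochondrial totals 10 were higher and 0 lower, with a median of 0.68. Of 45 totals of nuclear tRNAs within 5 edits of an organelle tRNA (plastid-like), 31 were higher and 1 lower, with a median of 0.94. Such copies can share reads with the plastid tRNA. Of the other 189 nuclear totals 56 were higher and 61 lower, with a median of -0.01. The counts of 0 here and below for lists of tRF totals, tRNAs and the ratio are from limma and were also 0 at an unadjusted p under 0.05, and with limma-voom on recovered reads where it was run.

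**Figure D1:**
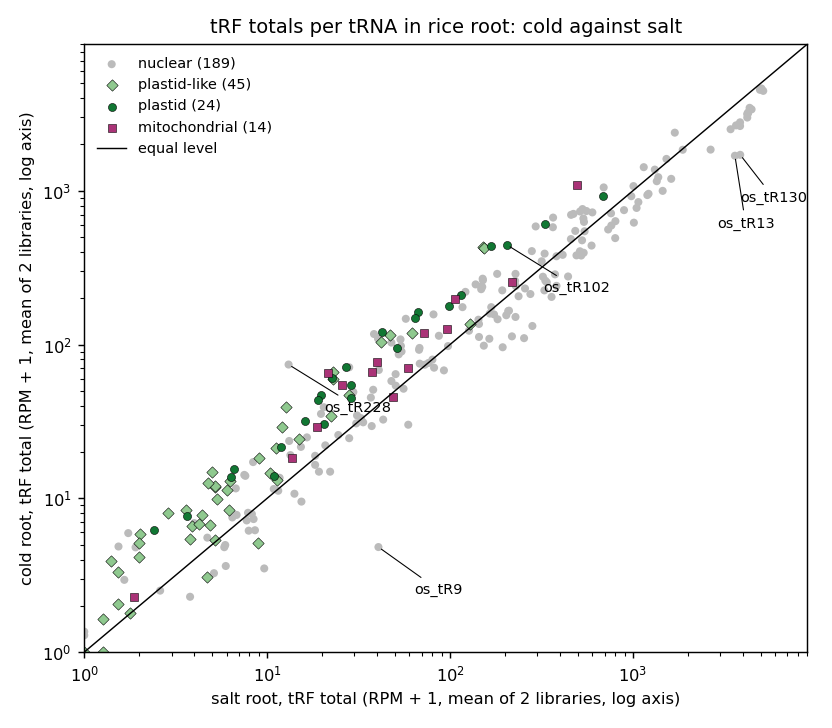
The tRF total of each of 272 tRNAs in cold roots (y axis) against salt roots (x axis), each the mean of 2 libraries in RPM + 1 on log axes, coloured by origin, with a line of equal level. Most plastid and mitochondrial points lie above the line, while the His-GTG total os_tR130 and the Arg-ACG total os_tR13 lie below it at high abundance.

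Histidine 5′ fragments showed the largest differences among abundant fragments, and each fragment that ran past base 31 differed more than the one that ended there. The tRF total of His-GTG os_tR130 was 1708 and 1715 RPM in cold roots, against 3919 and 3798 RPM in salt roots, and control roots held 1929 and 1833 RPM. The log2 difference was -1.17 (SE 0.03, adjusted p 2.4e-15), and the cold libraries lay beside the controls while both salt libraries lay far above them. The 31-nt fragment had 464 and 456 RPM in cold roots, 1014 and 992 RPM in salt roots and 413 and 447 RPM in control roots, which is 2.18-fold higher in salt (adjusted p 8.2e-11). The 33-nt fragment had 173 and 149 RPM in cold roots, 1062 and 999.9 RPM in salt roots and 242 and 209 RPM in control roots, 6.42-fold higher in salt (log2 difference -2.68, SE 0.11, adjusted p 3.7e-12). This fragment ends at the base before the anticodon. The 35-nt fragment, which holds its first 2 anticodon bases, had 18.7 and 18.8 RPM in cold roots and 205 and 208 RPM in salt roots, with 17.2 and 20.9 RPM in control roots. It was 11-fold higher in salt (log2 difference -3.40, SE 0.23, adjusted p 4.2e-09). The lengths between, 32, 34 and 36 nt, were lower in cold roots by 2.08, 2.25 and 1.89 on the log2 scale. Cold and salt libraries overlapped at none of these 6 lengths, as for 59.2% of all fragments.

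Salt roots thus held more of this ladder and a longer ladder. Of all His-GTG 5′ reads, 48.5% and 49.1% were 31 nt in cold roots, 32.4% and 32.9% in salt roots and 40.2% and 45.2% in control roots. Fragments of 33 nt and over made up 30.1% and 27.5% in cold roots, 52.9% and 51.6% in salt roots and 36.8% and 32.5% in control roots. With 2 libraries against 2, an exact permutation test of a share has 6 arrangements and a smallest p of 0.333, so no share can pass 0.05, and all shares here are given by library. The 5′ fragments of His-GTG took 1.94% and 1.89% of all fragment reads in cold roots, 6.02% and 5.78% in salt roots and 1.92% and 1.87% in control roots. Its 3′ fragments took 0.194% and 0.169% in cold roots and 0.159% and 0.159% in salt roots. Among single fragments over all tRNAs, 191 of 2794 (6.84%) were higher in cold roots and 154 (5.51%) lower, 12.3% together. Without either cold library or salt replicate 1 the number higher was 119 to 124, and without any one of the 4 libraries the number lower was 88 to 94. Of 28 His-GTG 5′ fragments tested, 15 were lower in cold roots and 0 higher (median -1.10). Of 20 His-GTG 3′ fragments 0 were called by limma (median -0.06), with 3 higher at an unadjusted p under 0.05, and 1 higher and 1 lower with limma-voom. Of 3 His-GTG tRF totals 2 were lower in cold roots and 1 was higher, the latter with a log2 difference of 1.33. The other lower total, os_tR134 (chromosome 2, 15510243 to 15510314, minus strand), was 635 and 604 RPM in cold roots against 1014 and 1008 RPM in salt roots (log2 difference -0.71). The tRNA signal of os_tR130 differed in the same direction, with 939 and 953 RPM in cold roots, 1717 and 1878 RPM in salt roots and 882 and 911 RPM in control roots (log2 difference -0.92).

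**Figure D2:**
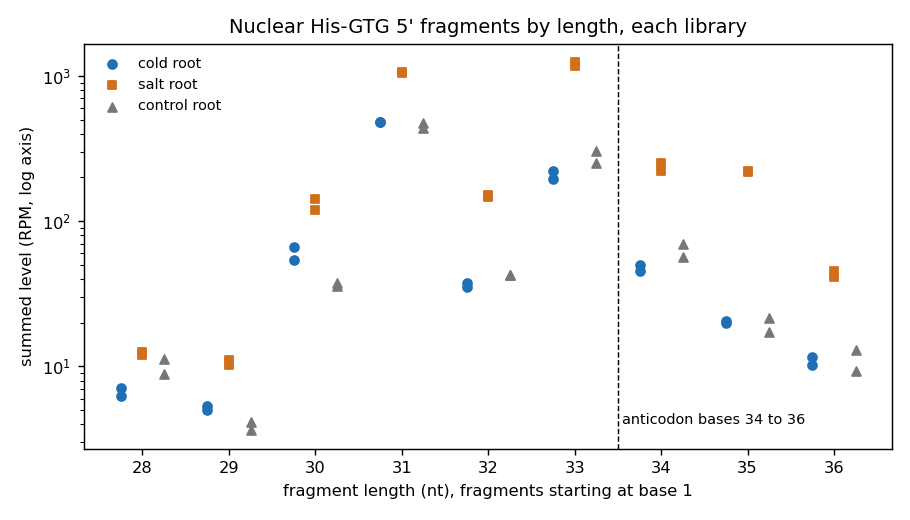
Abundance (RPM, log axis) of nuclear His-GTG 5′ fragments by length in nt, summed over all sequences of a length, in each cold, salt and control root library. Salt libraries exceed cold libraries at every plotted length, with sums of 20.6 and 19.9 RPM in cold roots against 218 and 221 RPM in salt roots at 35 nt.

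The 61 nuclear totals that were lower in cold roots came from many families, and besides those described here glycine gave 8 of its 16, isoleucine 3 of 7, threonine 3 of 9 and proline 3 of 13. In the same families 4 glycine, 2 threonine and 4 proline totals were higher. The lower share of proline, 23.1%, was near the 22.8% over all totals. Arginine totals were mostly higher in cold roots, with an abundant exception. Arg-ACG os_tR13 (chromosome 10, 11754756 to 11754828) had a tRF total of 1661 and 1715 RPM in cold roots, 3549 and 3672 RPM in salt roots and 2504 and 2527 RPM in control roots. That is a log2 difference of -1.10 (adjusted p 4.1e-11), with the controls between the groups. Its main fragment is 18 nt long and occurred also with a changed base at position 9, counted from 1 at the 5′ end and capitalised here.
nuclear Arg-ACG 18 nt: gactccatGgcccaatgg
nuclear Arg-ACG 18 nt with G9T: gactccatTgcccaatgg
The sequence as encoded had 662 and 737 RPM in cold roots and 1941 and 2005 RPM in salt roots, 2.82-fold higher in salt (adjusted p 2.3e-10). The form with G9T had 261 and 271 RPM in cold roots and 702 and 720.3 RPM in salt roots, 2.67-fold higher in salt. Both forms thus differed by similar folds, and base 9 is a position where plant tRNAs often carry a methylated guanine that reverse transcriptase can misread.

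Of 6 nuclear methionine totals 4 were lower in cold roots and 0 higher (median -0.82). Met-CAT os_tR193 had 108 and 111 RPM in cold roots, 251 and 256 RPM in salt roots and 178 and 179.9 RPM in control roots (log2 difference -1.20). Of 10 alanine totals 6 were lower and 2 higher (median -0.37). The largest of these differences was Ala-CGC os_tR9 (chromosome 6, 148701 to 148773), with 4.77 and 2.87 RPM in cold roots, 38.6 and 40.6 RPM in salt roots and 35.3 and 32.3 RPM in control roots. It was 10.4-fold higher in salt (adjusted p 2.0e-05), and here the salt libraries lay near the controls. Of 9 valine totals 6 were lower in cold roots (66.7%, against 22.8% over all totals) and 1 higher. Of 280 valine fragments 34 were lower (12.1%, against 5.51% over all fragments) and 3 higher. Val-AAC os_tR284 was lower in cold roots at both levels, with a tRF total of 1030 and 963 RPM in cold roots against 1439 and 1468 RPM in salt roots. Its tRNA signal was 972 and 1077 RPM in cold roots against 2334 and 2319 RPM in salt roots. Of 5 Gly-TCC totals 4 were lower and 0 higher.

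Glutamate tRNAs gave the most abundant single fragment and several of the most abundant tRF totals, and most of their totals were called. Of 16 glutamate totals 11 were lower in cold roots and 2 higher (median -0.40). Many of these tRNAs share fragments, so the totals are not independent of each other. Of 313 single glutamate fragments 19 (6.07%) were higher and 18 (5.75%) lower, near the shares over all fragments of 6.84% and 5.51%. Among them, the 162 Glu-CTC fragments gave 16 higher calls (9.88%) and 3 lower ones (1.85%), against the direction of most Glu-CTC totals. Glu-CTC os_tR93 had 4420 and 4501 RPM in cold roots, 5126 and 5187 RPM in salt roots and 5480 and 5631 RPM in control roots (log2 difference -0.21, adjusted p 4.7e-06). Glu-CTC os_tR95, by contrast, had 148 and 144 RPM in cold roots against 57.7 and 54.8 RPM in salt roots (log2 difference 1.36).

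Among 5′ fragments of glutamate and glycine tRNAs, direction and size differed between lengths. The Glu-CTC and Glu-TTC sequences each occur in 2 to 5 annotated tRNAs, so their lengths need not come from a single tRNA. These fragments were chosen after their values had been seen. Glu-CTC fragments of 29 and 30 nt are shown with bases past the 28th in capitals, the Glu-TTC fragments with none, and the Gly-TCC fragments with bases past the 18th in capitals.
nuclear Glu-CTC 29 nt: tccgttgtagtctagctggttaggatacT
nuclear Glu-CTC 30 nt: tccgttgtagtctagctggttaggatacTC
nuclear Glu-TTC 20 nt: tccattgtcgtctagtccgg
nuclear Glu-TTC 35 nt: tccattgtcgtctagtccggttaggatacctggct
nuclear Gly-TCC 18 nt: gcgtctgtagtccaacgg
nuclear Gly-TCC 19 nt: gcgtctgtagtccaacggT
nuclear Gly-TCC 33 nt: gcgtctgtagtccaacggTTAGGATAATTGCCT
The Glu-CTC 29-nt fragment had 404 and 497 RPM in cold roots, 159 and 211 RPM in salt roots and 161 and 181 RPM in control roots (log2 difference 1.28, adjusted p 1.8e-06). The 30-nt fragment had 995 and 965 RPM in cold roots, 644 and 679.6 RPM in salt roots and 363 and 384 RPM in control roots (log2 difference 0.57, adjusted p 8.3e-08). Cold roots held most of both, and salt and control roots held about the same of the 29-nt form. The Glu-TTC 20-nt fragment had 152 and 157 RPM in cold roots against 65.8 and 65.7 RPM in salt roots (log2 difference 1.22). The 35-nt Glu-TTC fragment, the most abundant fragment of all, was slightly lower in cold roots, with 2630 and 2618 RPM against 3044 and 3095 RPM in salt roots and 1478 and 1410 RPM in control roots (log2 difference -0.23, adjusted p 2.8e-04). Of Gly-TCC os_tR126, the 18-nt fragment had 1558 and 1611 RPM in cold roots and 1594 and 1579 RPM in salt roots, whose libraries overlapped (adjusted p 0.994). One base longer, the 19-nt fragment had 251 and 255 RPM in cold roots and 140 and 146 RPM in salt roots (log2 difference 0.82). The 33-nt fragment had 95.8 and 98.6 RPM in cold roots, 226 and 218 RPM in salt roots and 86.5 and 89.5 RPM in control roots (log2 difference -1.18). So the 18-nt form did not differ beyond its spread, while the 19-nt and 33-nt forms did.

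Nuclear serine tRF totals were higher in cold roots. Of 16 serine tRF totals 14 were higher in cold roots and 1 was lower (median 0.87, against 0.25 over all totals). Ser-AGA os_tR228 (chromosome 2, 21517909 to 21517988) had 69.7 and 76.5 RPM in cold roots, 11.1 and 13.1 RPM in salt roots and 77.9 and 78.2 RPM in control roots. It was 6.06-fold higher in cold roots (log2 difference 2.51, SE 0.16, adjusted p 1.9e-10), where it stood near the controls. Ser-TGA os_tR246 had 588 and 581 RPM in cold roots against 285 and 302 RPM in salt roots (log2 difference 0.99). The exception was Ser-CGA os_tR235, with 67.2 and 66.7 RPM in cold roots against 86.3 and 96.9 RPM in salt roots (log2 difference -0.44). In the tRNA table, 0 of 15 serine tRNAs were higher in cold roots, 5 were lower (33.3%, against 17.6% of all tRNAs) and 10 were not called. After centring each library on its median 3 were lower and the median was -0.04. Ser-CGA os_tR230 had a tRNA signal of 3450 and 3595 RPM in cold roots, 6407 and 6890 RPM in salt roots and 4881 and 5169 RPM in control roots (log2 difference -0.92, adjusted p 6.9e-07). Its tRF total was 679.5 and 657 RPM in cold roots, 380.3 and 349 RPM in salt roots and 773 and 743 RPM in control roots (log2 difference 0.87, adjusted p 4.5e-09).

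The log2 ratio of tRF total to tRNA signal joins the 2 tables, whose scaling totals are not given, so only its difference between groups is read. Of 239 tRNAs, 36 (15.1%) had a higher ratio in cold roots and 9 (3.77%) a lower one, 18.8% together. After centring each library on its median the numbers were 17 (7.11%) and 16 (6.69%), so the excess of higher ratios depends on the scaling. Without cold replicate 1 they were 14 and 2, and without cold replicate 2 they were 21 and 4. Of 15 serine tRNAs 10 had a higher ratio and 0 a lower one (7 and 0 after centring), with a median of 1.29 against 0.50 over all tRNAs. For Ser-CGA os_tR230 the log2 ratio was -2.34 and -2.45 in cold roots and -4.07 and -4.30 in salt roots (difference 1.79, adjusted p 2.3e-04). Ser-CGA os_tR231 had -2.30 and -2.14 in cold roots and -4.21 and -4.05 in salt roots (difference 1.91). The ratio was lower in cold than in salt roots for Leu-AAG os_tR147, with -4.85 and -5.49 in cold roots and -2.36 and -2.36 in salt roots (difference -2.81, adjusted p 7.0e-04). Control roots had -4.91 and -5.23, beside the cold libraries. The ratio of Arg-ACG os_tR13 was also lower in cold than in salt roots, with 1.45 and 1.34 in cold roots and 2.72 and 3.08 in salt roots (difference -1.50, adjusted p 0.0106). Control roots had 1.12 and 1.19, below the cold libraries.

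One abundant 5′ fragment each of nuclear Arg-CCT and Gly-GCC was higher in cold roots, while the fragments of these families as a whole were called in both directions. They are printed as abundant fragments of 2 tRNA families that plant studies often describe.
nuclear Arg-CCT 19 nt: gcgcctgtagctcagtgga
nuclear Gly-GCC 25 nt: gcaccagtggtctagtggtagaata
The Arg-CCT fragment had 1096 and 1153 RPM in cold roots, 582 and 535 RPM in salt roots and 1425 and 1397 RPM in control roots (2.01-fold, adjusted p 7.9e-10). Of 5 Arg-CCT totals 4 were higher in cold roots and 0 lower, and of all 19 arginine totals 13 were higher and 3 lower. The Gly-GCC fragment had 821 and 830.4 RPM in cold roots, 518 and 518 RPM in salt roots and 383 and 389 RPM in control roots (1.59-fold, adjusted p 5.9e-08). For these fragments salt roots were furthest from the controls for Arg-CCT, and cold roots for Gly-GCC. Of 44 Arg-CCT fragments 3 were higher in cold roots and 3 lower, and of 106 Gly-GCC fragments 6 were higher and 6 lower, near the shares over all fragments of 6.84% and 5.51%. Arg-CCT fragments of 17 and 18 nt with the substitution C4T, counted from the 5′ end, averaged 1.74 and 1.88 RPM in cold roots against 23.8 and 18.6 RPM in salt roots (log2 differences -3.20 and -2.77).

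Plastid fragments were called in 1 direction, higher in cold roots. A fragment that matched a plastid tRNA and others equally well was counted as plastid. One that matched mitochondrial and nuclear tRNAs equally well was counted as mitochondrial. These counts and shares can thus hold reads of other tRNAs, among them plastid-like ones. Of 534 plastid fragments 90 (16.9%, against 6.84% over all fragments) were higher and 0 lower, with a median of 0.55 against 0.13. At an unadjusted p under 0.05, 3 were lower, and with limma-voom 2. By end, 50 of 220 5′ fragments and 40 of 314 3′ fragments were higher. Plastid fragments took 7.11% and 7.09% of fragment reads in cold roots, 2.85% and 2.86% in salt roots and 3.33% and 3.45% in control roots. The Glu-TTC 36-nt fragment had 54.6 and 55.7 RPM in cold roots, 5.93 and 5.03 RPM in salt roots and 6.52 and 10.9 RPM in control roots, 10.1-fold higher in cold (log2 difference 3.12, SE 0.21, adjusted p 6.9e-09). The 26-nt Glu-TTC fragment had 30.9 and 29.5 RPM in cold roots, 3.24 and 2.85 RPM in salt roots and 8.23 and 5.98 RPM in control roots (9.92-fold). Plastid Glu-TTC gave 47 tested fragments, of which 12 were called, each higher in cold roots. The Asp-GTC 21-nt fragment had 176 and 167 RPM in cold roots, 18.6 and 25 RPM in salt roots and 17.5 and 25.4 RPM in control roots (7.88-fold, adjusted p 3.0e-11). The Gly-GCC 18-nt fragment had 51.0 and 48.2 RPM in cold roots, 8.09 and 6.71 RPM in salt roots and 5.49 and 6.62 RPM in control roots (6.70-fold). In all 4 fragments cold roots stood above both salt and control roots. For the 26-nt and 36-nt Glu-TTC fragments both salt libraries also lay below both control libraries, and for Gly-GCC they lay above them.

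**Figure D3:**
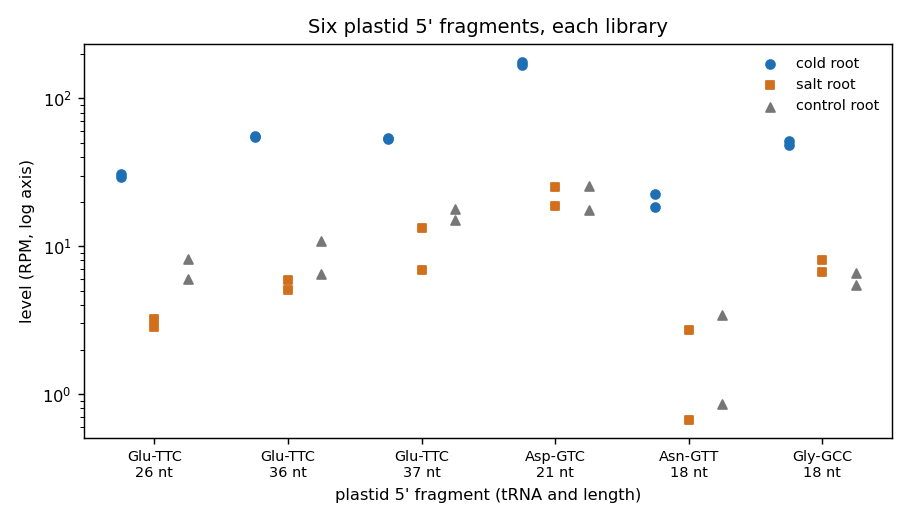
Abundance (RPM, log axis) of named plastid fragments in each cold, salt and control root library. The cold libraries lie above the salt libraries for each fragment, by 10.1-fold for the 36-nt Glu-TTC fragment.

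The plastid tRF totals named here moved less than these fragments, which were picked among the largest rises. Over the whole lists the order was the reverse, with a median of 1.07 for the 24 plastid totals and 0.55 for the 534 plastid fragments. Glu-TTC os_tR102 had 427 and 459 RPM in cold roots, 208 and 201 RPM in salt roots and 172 and 172 RPM in control roots (log2 difference 1.11, adjusted p 8.2e-13). Asp-GTC os_tR55 (plastid, 16231 to 16304) had 443 and 434 RPM in cold roots against 172 and 163 RPM in salt roots (log2 difference 1.39). Tyr-GTA os_tR277 had 616 and 602 RPM in cold roots against 331 and 326 RPM in salt roots (log2 difference 0.89). Phe-GAA os_tR197, the most abundant plastid total, had 900.3 and 945 RPM in cold roots against 693 and 675 RPM in salt roots (log2 difference 0.43). The single plastid total without a call was Cys-GCA os_tR63, with 13.7 and 12 RPM in cold roots against 9.17 and 10.6 RPM in salt roots (adjusted p 0.0949). Of 23 plastid tRNAs in the table of tRNA signal, 5 were higher in cold roots and 0 lower, and 12 and 0 after median centring. Glu-TTC os_tR102 led them, with a tRNA signal of 3740 and 4160 RPM in cold roots, 1753 and 1588 RPM in salt roots and 1004 and 1004 RPM in control roots (log2 difference 1.24, adjusted p 9.2e-08). The Asp-GTC tRNA os_tR55 differed by 0.38 (adjusted p 0.00331), with 2450 and 2431 RPM in cold roots against 1743 and 2030 RPM in salt roots, and its adjusted p was 0.0511 without salt replicate 1. Plastid tRNAs are far more abundant in green tissue, and the os_tR102 tRF total averaged 2991 RPM in cold shoots and 2414 RPM in salt shoots. The part of shoot material, and of the light during cold, in these root differences was not tested.

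Mitochondrial tRNAs had higher tRF totals and a larger share of fragment reads in cold than in salt roots, and control roots had the largest share. Of 113 mitochondrial fragments 10 were higher in cold roots and 0 lower (2 lower at an unadjusted p under 0.05 and with limma-voom). That is 8.85%, near the 6.84% called higher over all fragments. Their share of fragment reads was 2.66% and 2.68% in cold roots, 1.26% and 1.24% in salt roots and 3.74% and 3.50% in control roots. Tyr-GTA os_tR279 (mitochondrial chromosome M, 363110 to 363192) had a tRF total of 1102 and 1073 RPM in cold roots against 511 and 479 RPM in salt roots, with a control mean of 1698 RPM (log2 difference 1.13, adjusted p 2.3e-10). Its tRNA signal went the other way, with 44.8 and 116 RPM in cold roots and 262 and 155 RPM in salt roots (log2 difference -1.47, adjusted p 0.0177), which was -0.80 and not called without cold replicate 1, and -1.10 and not called without salt replicate 1. Ser-GGA os_tR244 had a tRF total of 70.2 and 59.2 RPM in cold roots, 16.5 and 24.3 RPM in salt roots and 69.3 and 64.9 RPM in control roots (log2 difference 1.64). A 37-nt fragment matched this tRNA and plastid Ser-GGA os_tR243 equally well. That fragment had 33.4 and 34.6 RPM in cold roots and 1.62 and 11.1 RPM in salt roots, so the os_tR244 total may hold plastid reads. Of 8 mitochondrial tRNAs 0 were higher in cold roots and 2 lower, Tyr-GTA and Met-CAT os_tR186. Over all tRNAs 5.74% were higher and 17.6% lower. After median centring 0 mitochondrial tRNAs were higher and 1 lower, and Tyr-GTA was not called (adjusted p 0.0751). The Met-CAT tRNA had 275 and 295 RPM in cold roots against 644 and 653 RPM in salt roots (log2 difference -1.18).

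The tRNA table as a whole lay lower in cold roots. Of 244 tRNAs 14 (5.74%) were higher in cold roots and 43 (17.6%) lower, 23.4% together, with a median of -0.17. After median centring the split was 31 higher (12.7%) and 24 lower (9.84%), so the excess of lower calls depends on the scaling. Without cold replicate 2 the number higher was 7, and without cold replicate 1 the number lower was 28. The values of the table summed to 115097 and 122129 RPM in cold roots, 152697 and 161250 RPM in salt roots and 174393 and 183473 RPM in control roots. Of 177 nuclear tRNAs outside the plastid-like group 5 were higher and 41 lower (14 and 23 after centring). Ile-AAT os_tR138 had 5258 and 5646 RPM in cold roots, 10023 and 10226 RPM in salt roots and 12737 and 12595 RPM in control roots (log2 difference -0.89, adjusted p 1.1e-06). The most abundant tRNA, Lys-CTT os_tR163, had 8490 and 9281 RPM in cold roots against 10547 and 11158 RPM in salt roots, a log2 difference of -0.29 that became 0.08 after centring. Against this direction, Leu-AAG os_tR147 (chromosome 2, 5569897 to 5569977) had 507 and 544 RPM in cold roots, 126 and 98.8 RPM in salt roots and 729.8 and 839 RPM in control roots (log2 difference 2.23, adjusted p 1.5e-05). Plastid Phe-GAA os_tR197 was called higher (32.6 and 47.9 RPM in cold roots against 0 and 21.2 RPM in salt roots), but without salt replicate 1 its log2 difference of 3.11 became 0.87 and was not called, nor was it without either cold library.

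Fragment classes and lengths differed by a few percentage points of fragment reads. The tRF-5 share was 47.5% and 48.7% in cold roots and 47.2% and 47.9% in salt roots, and the 5′-halves took 20.5% and 20.3% in cold roots and 20.4% and 20.3% in salt roots, so the libraries overlapped in both. The tRF-3 share was 10.1% and 9.93% in cold roots, 6.98% and 7.05% in salt roots and 10.6% and 10.6% in control roots. The 3′-halves took 21.9% and 21% in cold roots, 25.4% and 24.8% in salt roots and 30.7% and 30.0% in control roots. Over all fragments 6.84% were called higher in cold roots and 5.51% lower. Of 878 tRF-3, 55 (6.26%) were higher and 15 (1.71%) lower. The 844 3′-halves gave 79 lower calls (9.36%) and 16 higher ones (1.90%). Of 794 tRF-5, whose share of reads overlapped, 96 (12.1%) were higher and 43 (5.42%) lower. Among fragments of 24 to 27 nt 17 of 177 were higher and 0 lower (1 at an unadjusted p under 0.05 and with limma-voom), and their share was 5.94% and 6.13% in cold roots, 4.12% and 4.15% in salt roots and 2.77% and 2.82% in control roots. Among 3′ fragments, those starting with T took 29.7% and 29.7% in cold roots, 19.3% and 18.9% in salt roots and 29.1% and 29.4% in control roots.

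**Figure D4:**
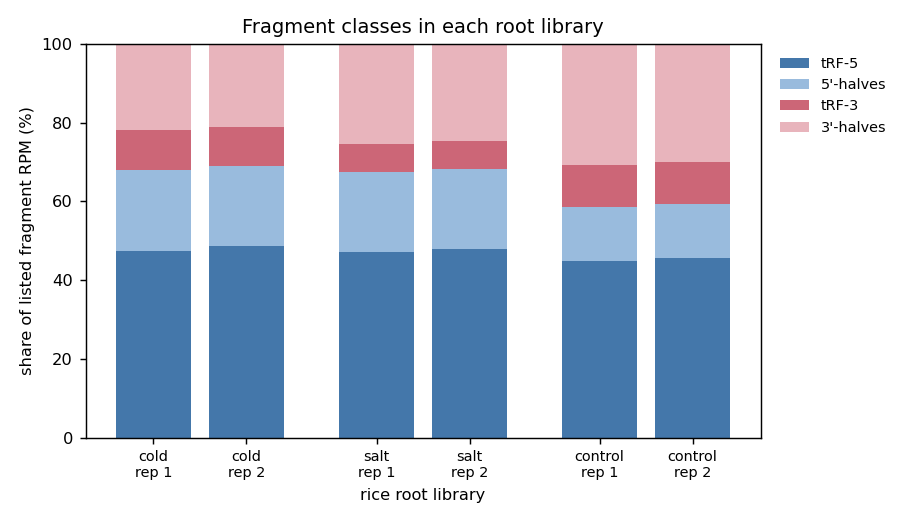
Shares of fragment reads (percent) by fragment class in each cold, salt and control root library. The tRF-3 share is 10.1% and 9.93% in cold roots and 6.98% and 7.05% in salt roots, while the tRF-5 shares overlap.

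The 3′ ends of fragments differed in most amino acid families. A tRNA without the last A of its CCA tail cannot accept an amino acid. The share of 3′ fragment reads that lacked this A was 57.1% and 56.7% in cold roots, 65.9% and 65.2% in salt roots and 65.5% and 65.6% in control roots. It was higher in both salt libraries than in both cold libraries for 16 of 20 amino acid families of nuclear tRNAs and lower for 2. The other 2, asparagine and cysteine, had few 3′ fragments and no listed one without the A. These families, and the pairs below, were chosen after their values had been seen. Methionine fragments lacked the A in 19.8% and 19.7% of reads in cold roots, 53.0% and 53.9% in salt roots and 34.1% and 30.5% in control roots. Alanine fragments lacked it in 15.7% and 15.1% in cold roots, 40.3% and 39.9% in salt roots and 32.9% and 30.4% in control roots. Valine fragments lacked it in 30.6% and 30.5% in cold roots, 47.0% and 46.6% in salt roots and 36.3% and 36% in control roots. In these 3 families cold roots were lowest, controls between and salt roots highest. The 2 families in the other direction were glutamate, with 88.6% and 88.1% in cold roots against 86.8% and 86.8% in salt roots, and histidine, with 66.5% and 59.2% in cold roots against 59.0% and 57.7% in salt roots.

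Pairs of fragments that differ only in this last A make the difference visible sequence by sequence. In 148 of 212 pairs (69.8%) the share lacking the A was higher in both salt libraries, in 12 (5.66%) lower and in 52 overlapping, with a median difference of -11.6 percentage points, cold minus salt. Many pairs are other lengths or substituted forms from the same tRNA, so the pairs are not independent of each other. Capitals mark the tail in the pairs below, and the Ala-TGC pair carries the substitution A58T, counted from the 5′ end of the tRNA.
nuclear Ala-TGC 20 nt with CCA: gttcccccgcatctccaCCA
nuclear Ala-TGC 19 nt without the last A: gttcccccgcatctccaCC
nuclear Gly-GCC 38 nt with CCA: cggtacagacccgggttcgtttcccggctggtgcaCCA
nuclear Gly-GCC 37 nt without the last A: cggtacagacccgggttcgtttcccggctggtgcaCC
The Ala-TGC fragment with CCA had 4.20 and 5.87 RPM in cold roots and 5.93 and 8.72 RPM in salt roots (adjusted p 0.77). The same fragment without the A had 1.14 and 2.28 RPM in cold roots, 17.8 and 25.3 RPM in salt roots and 2.74 and 6.84 RPM in control roots (12.6-fold higher in salt, adjusted p 5.5e-04). The share lacking the A was 21.4% and 27.9% in cold roots against 75.0% and 74.4% in salt roots. The Gly-GCC fragment with CCA had 40.3 and 36.8 RPM in cold roots and 23.2 and 26.8 RPM in salt roots (adjusted p 0.314), while the form without the A had 252 and 243 RPM in cold roots and 502 and 493 RPM in salt roots (2.01-fold higher in salt, adjusted p 1.3e-05). In both pairs the longer form was not called and the shorter one was. The Ala-TGC pair had the largest difference towards salt of all pairs, -50.0 points. Not every pair behaved so: both forms of a mitochondrial Tyr-GTA fragment were called higher in cold roots. The folds were 2.85 for its 35-nt form with CCA and 2.57 for its 34-nt form without the A. Of 1160 3′ fragments ending in CCA, 55 (4.74%) were higher in cold roots and 17 (1.47%) lower. Of 562 lacking the A, 16 (2.85%) were higher and 77 (13.7%) lower. Over all fragments 6.84% were higher and 5.51% lower.

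**Figure D5:**
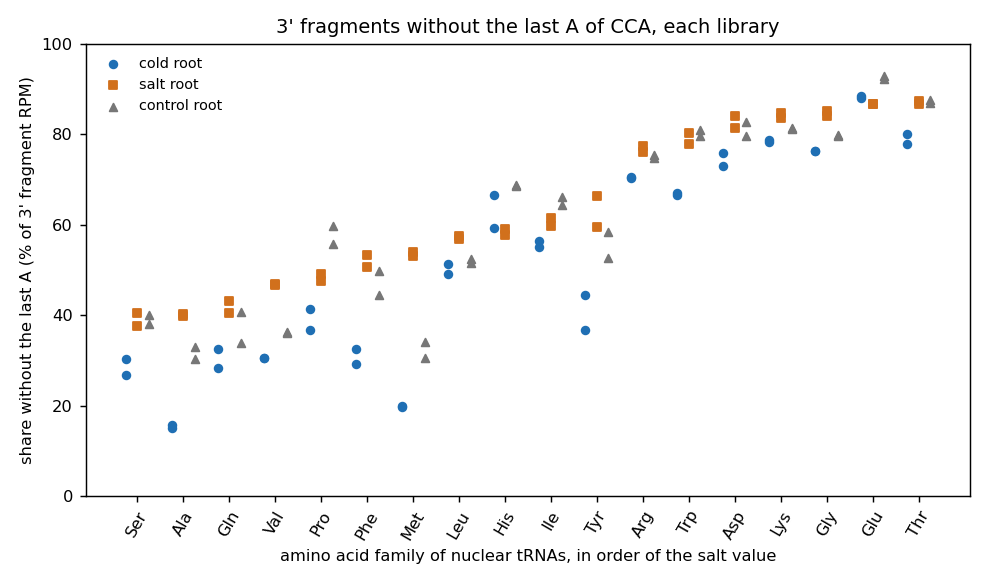
Share of 3′ fragment reads lacking the last A of the CCA tail (percent) by amino acid family of nuclear tRNAs, for each cold, salt and control root library. Salt libraries lie above cold libraries in most families, as in methionine with 19.8% and 19.7% in cold roots against 53.0% and 53.9% in salt roots. Asparagine and cysteine are not plotted.

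A difference between cold and salt could be shared by the whole seedling or hold for roots, so the same contrast in shoots was subtracted from that in roots. By adjusted p the organs differed in 37.3% of tRNAs, 58.1% of tRF totals, 11.1% of fragments and 44.4% of ratios. After centring each library on its median these shares were 18.9%, 56.2%, 11.1% and 14.2%. The tRF totals had 127 tRNAs with a larger cold-minus-salt value in roots and 31 with a smaller one, and 72 and 81 after centring, so the direction of these differences depends on the scaling. The 33-nt His-GTG fragment averaged 161 RPM in cold and 1031 RPM in salt roots, but 246 RPM in cold and 177 RPM in salt shoots (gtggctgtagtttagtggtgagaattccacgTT; root minus shoot -3.15 on the log2 scale, adjusted p 5.9e-11). The 36-nt plastid Glu-TTC fragment averaged 55.1 RPM in cold and 5.48 RPM in salt roots, but 80.9 RPM in cold and 255 RPM in salt shoots (root minus shoot 4.76, adjusted p 2.4e-09). The means of both fragments ran in opposite directions in the 2 organs.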

How the data were processed

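Adapters were trimmed with cutadapt, per the submitters' processing notes. Which rice genome build and aligner were used, and how reads matching more than 1 tRNA were assigned, is not given in the sources used here. RNA was treated with a tRF pretreatment kit before small RNA libraries were made, per the labels' protocols. The deposited values are on a log2 scale of RPM, per the file headers, which name an offset of 1; in the tables per tRNA all non-zero values fitted whole reads (within 0.05) with an offset of 0.5, and in the fragment table with 1. Values were turned back to RPM. Starts, which the files count from 0, were moved by 1. Features averaging 1 RPM or more over the rice libraries were tested on log2(RPM + 1), so folds of low features are understated, with limma 3.58.1 (trend) in R 4.3.3, with 1 mean per group; a row of the design that assumed counts was not used. Fold values are ratios of mean RPM. Named features follow a rule of size and abundance (mean of at least 10 RPM), and others are said to be chosen after their values were seen. Members and lists were chosen with earlier results of these data known. Replicates of a group differed beyond sampling noise and were counted as 2 samples. Shares were compared by exact permutation. The fit was tested on simulated data. Alternatives included other offsets, filters, scaling, voom on recovered reads and leaving out each library.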

Additional observations from a re-analysis of the deposited data

Results flagged for a closer look

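The cold-minus-salt difference was not the same in root and shoot for a number of named features. The values here are log2 differences of root minus shoot, from limma, and each listed feature passed an adjusted p of 0.05 both as deposited and after centring each library on its median. Only the features with the largest rises and falls at each level were counted here. Of these, 6 of 16 tRNAs, 13 of 16 tRF totals, 14 of 16 fragments and 4 of 11 ratios met this. Some other features named above also met it but are not listed, such as the tRF total of Ser-CGA os_tR230 (1.18).

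Among the plastid fragments with the largest rises in cold roots, 4 were called higher in cold roots and lower in cold shoots: Asp-GTC 21 nt, Asn-GTT 18 nt, Gly-GCC 18 nt and Glu-TTC 36 nt. This was not counted over all plastid fragments. The Asp-GTC 21-nt fragment averaged 172 RPM in cold and 21.8 RPM in salt roots, but 462 RPM in cold and 2311 RPM in salt shoots (5.25). The Asn-GTT 18-nt fragment averaged 20.4 RPM in cold and 1.68 RPM in salt roots, but 22.6 RPM in cold and 168 RPM in salt shoots (5.96). The value was 4.40 for Gly-GCC 18 nt and 4.76, 3.31 and 2.58 for Glu-TTC of 36, 26 and 37 nt. In shoots the 26-nt and 37-nt Glu-TTC fragments were not called (adjusted p 0.287 and 0.498 from limma). The shoot means of Glu-TTC 36 nt were 80.9 RPM in cold and 255 RPM in salt.

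Among histidine fragments, His-GTG 33 nt averaged 161 RPM in cold and 1031 RPM in salt roots, and 246 RPM in cold and 177 RPM in salt shoots (-3.15). The value was -3.74 for His-GTG 35 nt and -2.14 for the 34-nt fragment of os_tR134. Fragments of Arg-CCT with a substitution gave -5.79 (17 nt) and -3.70 (18 nt). Fragments lacking the last A gave -2.48 for Ala-TGC, -6.00 for Ala-CGC and -1.59 for Val-AAC. The Arg-CCT 17-nt and Ala-CGC fragments had no reads in salt shoots, so these fitted values depend on the added 1 RPM.

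Among tRF totals the value was -3.24 for Ala-CGC os_tR9, -1.41, -1.17 and -0.90 for Met-CAT os_tR193, os_tR192 and os_tR182, -1.14 for His-GTG os_tR130, -0.79 for Ile-AAT os_tR140 and -0.54 for Arg-ACG os_tR13. It was 1.57 and 1.58 for plastid-like Asp-GTC os_tR52 and os_tR59, 1.42 for plastid-like Gly-GCC os_tR116, 1.26 for both Ser-AGA os_tR228 and plastid-like Thr-TGT os_tR263, and 1.24 for mitochondrial Ser-GGA os_tR244. For tRNA signal it was -3.13 for Ala-CGC os_tR8, -3.12 and -3.35 for proline tRNAs os_tR221 and os_tR212, 1.43 for Leu-AAG os_tR147, and 1.82 and 1.18 for plastid Arg-ACG os_tR12 and Glu-TTC os_tR102. For the ratio it was -1.96 for os_tR147, -1.79 for os_tR12, and 2.65 and 2.76 for Ser-CGA os_tR231 and os_tR230.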

How the results depend on the processing

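Median centring changed the counts of tRNAs to 31 higher and 24 lower, scaling to the table total to 27 and 18, and fits to the 4 libraries and to root libraries gave 6 and 9 higher. For the tRF-to-tRNA ratio centring gave 17 higher and 16 lower, the 4 libraries alone 17 and 2, and root libraries alone 20 and 4. For fragments voom on recovered reads called 315 higher and 295 lower, and the smaller fits 236 lower. For the difference between root and shoot centring gave 28 and 18 tRNAs, 72 and 81 tRF totals, and 21 and 13 ratios. The cause was not tested. Leaving out 1 library gave 7 to 19 tRNAs higher and 28 to 37 lower, 105 to 112 tRF totals higher and 55 to 59 lower, 119 to 156 fragments higher and 88 to 94 lower, and 14 to 29 ratios higher and 2 to 12 lower. It also turned the direction of differences in share that were near 0, from -0.0858 to 1.17 points for tRF-5, -0.0432 to 0.14 for 5′-halves (-0.0054 without salt replicate 2, and -0.203 among fragments without a mismatch) and -0.273 to 0.431 for first base G (-0.108 without salt replicate 1). The tRNA values of os_tR163, os_tR93 and os_tR176 turned to 0.08, 0.07 and 0.37 with centring and to 0.11, 0.10 and 0.40 with total scaling, where os_tR261 reached 0.0 and the tRF totals os_tR122, os_tR126, os_tR78 and os_tR268 turned to 0.05, 0.05, 0.16 and 0.01. Of the other settings of single features 1960 kept their side, 140 lost and 26 gained a call. The replicate block gave 15 and 46 tRNAs, 120 and 61 tRF totals, 196 and 156 fragments and 38 and 8 ratios; deviations of same-numbered libraries correlated at 0.126, 0.118 and 0.351, with no label that pairs them. Depth limits the tRNA table most, where 1 read in salt roots is worth 5.23 and 3.53 RPM.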
